A study of Homo sapiens with 8 samples.

Results

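The ATP-binding cassette (ABC) transporter genes of U-87MG glioblastoma cells are described here across a treatment with indole-3-carboxaldehyde (I3CA). Members were the rows of the deposited table that carry exactly 1 gene symbol made of ABC, a letter from A to G and a number, with the brightest row standing for a gene and ABCG2 left out. This gave 31 genes of the 11822 genes tested, with 6 in subfamily A, 6 in B, 9 in C, 2 in D, 1 in E, 3 in F and 4 in G. RefSeq lists 44 protein-coding genes that fit the same symbol pattern without ABCG2. The other 13 had no row of their own and are not analysed here, among them ABCB1 (P-glycoprotein). ABCB8, also among the 13, shared its 2 rows with a second gene symbol.

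The treated cells were U-87MG, an established human glioblastoma line, given 50 µM I3CA, a tryptophan-derived aldehyde used here as a ligand of AHR, the aryl hydrocarbon receptor, a ligand-activated transcription factor, for 24 h (4 arrays). The control cells were the same line given the solvent DMSO for 24 h (4 arrays). Cells were seeded in 6-well plates and left for 24 h before treatment, and neither group carried a transgene by its labels. All 8 samples come from this 1 cell line, and the labels call the 4 of a group biological replicates without saying that they were separate cultures, so the spread behind each p-value may be technical. Of the measured marker rows, vimentin (VIM) averaged 13.1 on the log2 scale, CD44 11.2, EGFR 10.1, the astrocyte filament gene GFAP 8.31 and nestin (NES) 8.14. The mesenchymal genes fibronectin (FN1), TGFBI and COL1A1 averaged 12.8, 12.4 and 10.7. The neuronal genes RBFOX3, MAP2 and SYT1 averaged 9.13, 8.63 and 8.26, and the epithelial genes CDH1 and EPCAM 8.69 and 7.70. The macrophage gene AIF1 averaged 8.36 and the endothelial gene KDR 8.23, beside a median row mean of 8.83. Brightness cannot be compared between rows, so these values do not settle the identity of the cells. Both arrays numbered 4 stood apart on the first principal component, at 16.4 for I3CA and 15.3 for DMSO, with the other 6 arrays between -11.2 and 0.39.

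ABC proteins bind ATP at paired nucleotide-binding domains and use its hydrolysis to move lipids, sterols, peptides, conjugated metabolites or drugs across membranes. Subfamilies A, D and G mostly carry lipids and sterols, B and C include the multidrug efflux pumps, and E and F lack membrane-spanning domains and act on ribosomes. In the brain and in gliomas the family is known for drug efflux at the blood-brain barrier and from tumour cells. ABCG2, the member left out here, is a drug pump widely described as an AHR target. It averaged 7.95 ± 0.21 with I3CA and 7.88 ± 0.19 with DMSO (SD, n = 4 each), a difference of 0.07 ± 0.13 (SE).

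None of the 31 ABC genes rose or fell with I3CA at an adjusted p under 0.05. The test was limma's moderated linear model over all 11822 genes with Benjamini-Hochberg adjustment, and 0.00846% of all genes passed it. The smallest adjusted p of a member was 1.00. By the unadjusted p under 0.05 the count was 1 of 31, ABCC9, or 3.23% of the family, against 3.16% of all genes. In 0 of 31 members did the 4 I3CA arrays lie all above or all below the 4 DMSO arrays, against 1.92% of all genes. The members' differences, I3CA minus DMSO on the log2 scale, ran from -0.33 (ABCC9) to 0.33 (ABCC12). Their median was 0.01, with 17 of 31 above 0, beside a median of -0.01 and 46.6% above 0 over all genes.

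**Figure D1:**
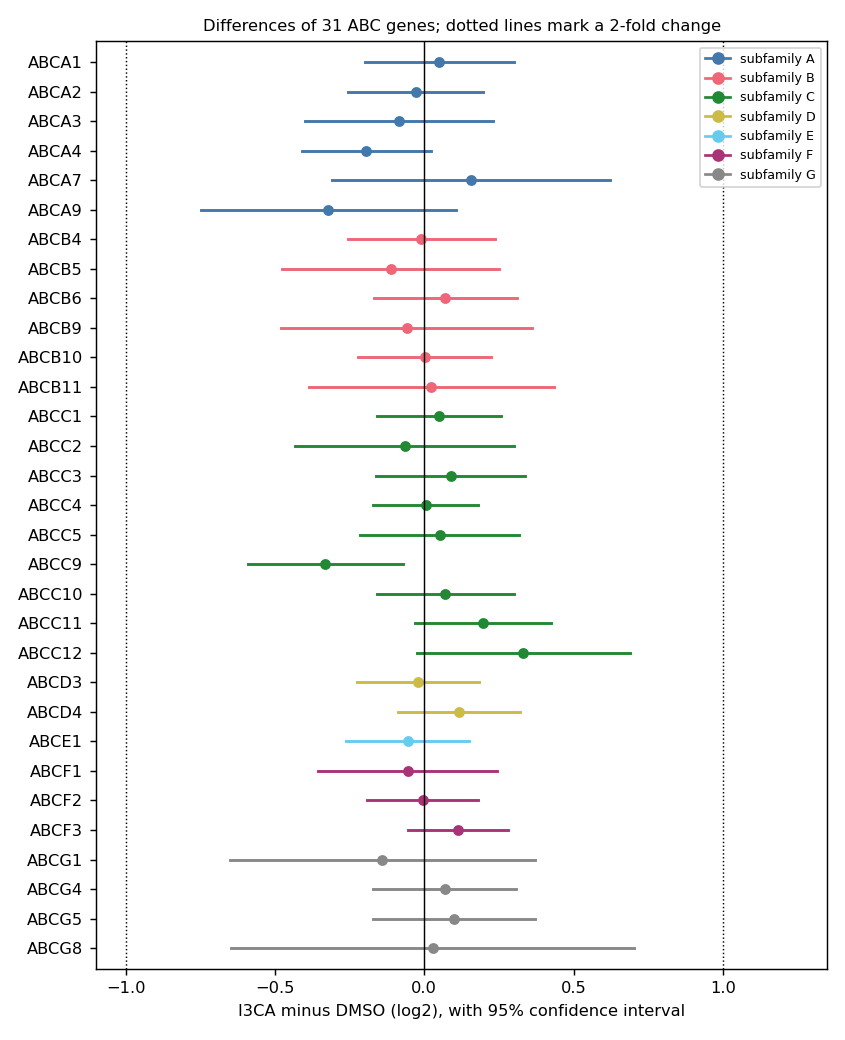
Difference between I3CA and DMSO on the log2 scale for each of the 31 ABC genes (points) with its 95% confidence interval from limma (lines), coloured by subfamily; dotted lines mark a 2-fold change. The intervals lie between -0.75 (ABCA9) and 0.70 (ABCG8), and that of ABCC9 alone leaves out 0.

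The intervals give the range of differences compatible with these arrays, not the size of change that would have passed the threshold. They rest on the spread between replicates, which may be technical. The 95% confidence interval of each difference, which was not widened for the number of genes, lay within 1 log2 unit of 0 in 31 of 31 members, so a 2-fold change of array signal in either direction was outside it. The same held for 99.5% of all genes. Within 0.5 of 0 lay 25 of 31 members (80.6%), against 88.1% of all genes. For scale, TIPARP, an ADP-ribosyltransferase that represses AHR and is among its target genes, differed by 0.60 ± 0.13 (SE; limma adjusted p = 0.79). The interval of 28 of the 31 members ended below that point value, the exceptions being ABCA7, ABCC12 and ABCG8. TIPARP's own interval ran from 0.31 to 0.89, and those of ABCA7, ABCC12 and ABCG8 reached into it. So did the intervals of ABCB9, ABCB11 (up to 0.43), ABCC3, ABCC5, ABCC11 (up to 0.42), ABCD4, ABCG1 and ABCG5. A fall as large as the TIPARP difference lay inside the intervals of ABCA9 (from -0.75), ABCG1 (from -0.65) and ABCG8 (from -0.65). Array signal understates changes in RNA because probes carry background, and the table holds no measure of signal over background, so these are bounds on signal and not on RNA. They are also not shown to concern expressed genes, and in RNA of bulk cells a change in fewer cells cannot be told apart from a smaller one in all cells.

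**Figure D2:**
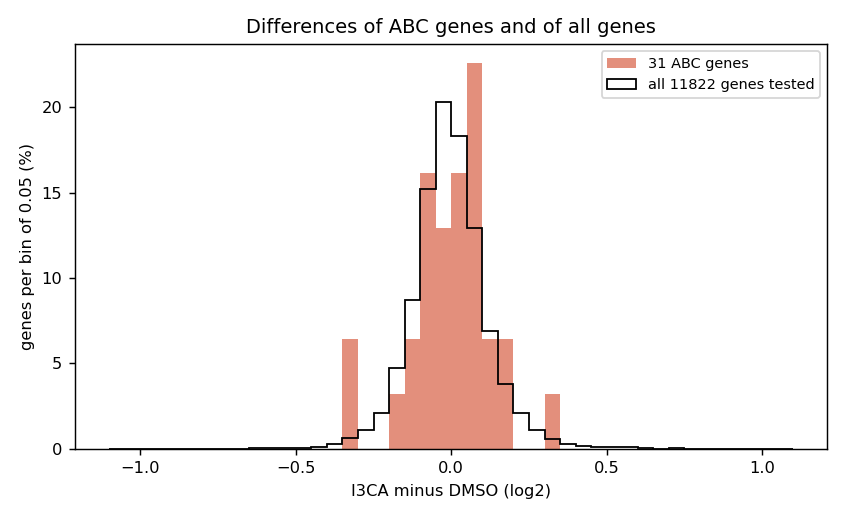
Share of genes per bin of 0.05 against the difference between I3CA and DMSO on the log2 scale, for the 31 ABC genes (filled bars) and all 11822 genes tested (black outline). Both distributions centre near 0, with medians of 0.01 and -0.01.

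By subfamily, no median difference exceeded the SD of the subfamily's mean between replicate arrays. That SD describes single arrays and is not the standard error of a difference, so the comparison is a description and not a test. The median was -0.06 for subfamily A (2 of 6 above 0), 0.00 for B (3 of 6), 0.05 for C (7 of 9), 0.05 for D (1 of 2), -0.06 for ABCE1 alone, -0.01 for F (1 of 3) and 0.05 for G (3 of 4). The matching standard deviation between replicates of the subfamily mean was 0.11 for A, 0.13 for B, 0.06 for C, 0.10 for D, 0.12 for ABCE1, 0.08 for F and 0.19 for G. Subfamily C held both ends of the family, ABCC9 and ABCC12. Over all 31 members the mean per array was 8.83, 8.78, 8.79 and 8.95 for I3CA replicates 1 to 4, and 8.89, 8.80, 8.83 and 8.83 for DMSO replicates 1 to 4. The group means of these values were 8.84 ± 0.08 with I3CA and 8.84 ± 0.04 with DMSO (SD, n = 4 each), and I3CA replicate 4 was the highest of the 8 arrays.

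**Figure D3:**
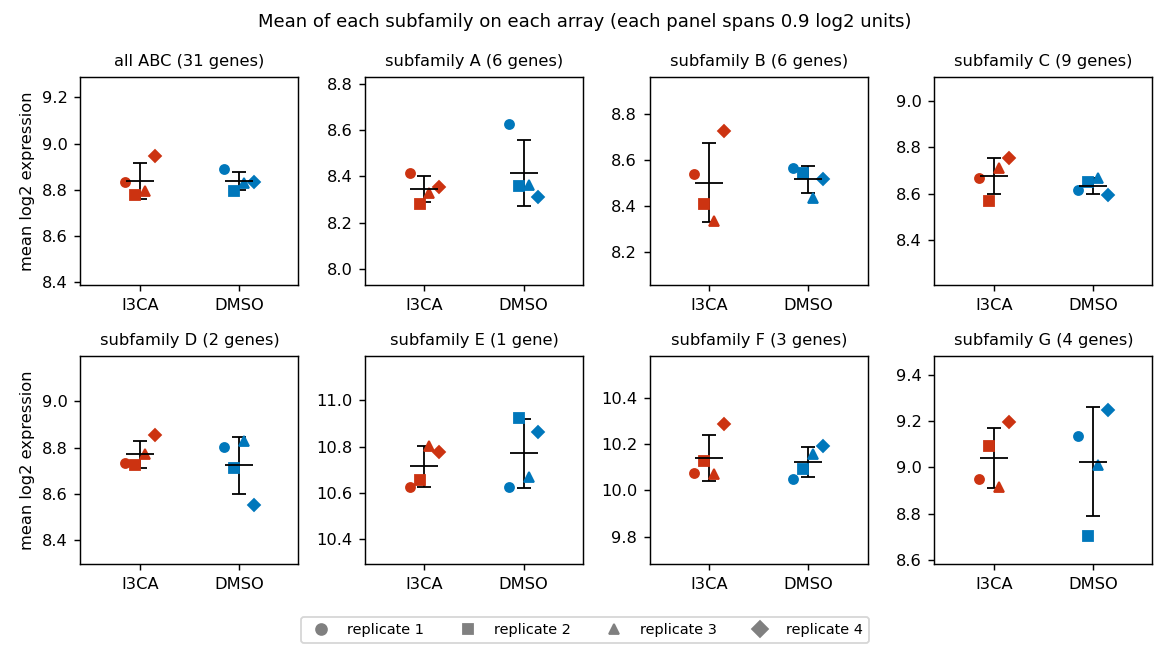
Mean log2 expression over the members of each subfamily on each array, I3CA left and DMSO right, with symbols for the replicate number, black lines for the group mean and bars for the SD (n = 4). The groups overlap in every panel.

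Among the lipid transporters of subfamily A, ABCA1, which loads cholesterol and phospholipid onto apolipoprotein A-I, did not part the groups. Its log2 expression was 10.22, 10.10, 10.04 and 9.83 in I3CA replicates 1 to 4, against 10.09, 10.13, 10.01 and 9.75 in DMSO replicates 1 to 4. The replicates numbered 4 were the lowest of both groups, and the difference was 0.05 ± 0.11 (SE; 95% interval -0.20 to 0.30). ABCA4, the retinoid flippase of photoreceptors, had the smallest p of the subfamily. Its values were 7.83, 8.03, 7.77 and 7.86 with I3CA, against 8.27, 7.91, 8.02 and 8.06 with DMSO. I3CA replicate 2 lay above 2 of the DMSO arrays, and the difference was -0.19 ± 0.10 (interval -0.41 to 0.02). It was -0.25 without I3CA replicate 2 (limma unadjusted p = 0.035) and -0.25 without DMSO replicate 2 (limma unadjusted p = 0.039). Without I3CA replicate 2 the groups did not overlap, as was so in 4.5% of all genes. The difference shrank to -0.16 without I3CA replicate 3 (limma unadjusted p = 0.17) and to -0.13 without DMSO replicate 1 (limma unadjusted p = 0.22). ABCA9 had the most negative difference of the subfamily, -0.32 ± 0.19, with arrays from 7.09 to 7.90 under I3CA and from 7.47 to 8.13 under DMSO. Of the rest, ABCA2, found in endolysosomes of the brain, differed by -0.03 ± 0.10, ABCA3, which packs lung surfactant lipid, by -0.09 ± 0.14 and ABCA7, a phospholipid transporter linked to Alzheimer's disease, by 0.16 ± 0.21.

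In subfamily B the brightest row and the smallest p both belonged to ABCB5, a transporter known from limbal stem cells and melanoma. It read 9.14, 8.98, 8.38 and 9.17 with I3CA, against 9.21, 8.99, 8.86 and 9.06 with DMSO. I3CA replicate 3 was the lowest of all 8 arrays, and the difference of -0.11 ± 0.16 was 0.07 without it. The 2 bile transporters were as close. ABCB4, the phosphatidylcholine floppase, averaged 8.82 ± 0.14 with I3CA and 8.83 ± 0.19 with DMSO, and ABCB11, the bile salt export pump, averaged 7.96 ± 0.44 with I3CA and 7.93 ± 0.13 with DMSO (SD, n = 4 each). The members of heme and porphyrin transport, ABCB6 and the mitochondrial ABCB10, differed by 0.07 ± 0.11 and 0.00 ± 0.10 (SE). ABCB9, a lysosomal peptide transporter, differed by -0.06 ± 0.19. ABCB11 alone of these reached an unadjusted p under 0.05 when I3CA replicate 3 was left out (difference 0.24).

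Subfamily C holds the multidrug resistance proteins, which export glutathione, glucuronide and nucleotide conjugates. ABCC1 (MRP1), an exporter of glutathione conjugates, read 9.21, 9.21, 9.29 and 9.25 with I3CA, against 9.19, 9.30, 9.32 and 8.95 with DMSO. The 4 I3CA arrays fell inside the DMSO range, whose low end was replicate 4, and the difference was 0.05 ± 0.09 (interval -0.16 to 0.26). ABCC4 (MRP4), which exports cyclic nucleotides and prostaglandins, read 9.44, 9.45, 9.33 and 9.58 with I3CA, against 9.44, 9.49, 9.47 and 9.38 with DMSO. Its difference of 0.01 ± 0.08 had the second narrowest interval of the family (-0.17 to 0.18). The remaining organic anion exporters ABCC2, ABCC3, ABCC5 and ABCC10 differed by -0.07 ± 0.17, 0.09 ± 0.11, 0.05 ± 0.12 and 0.07 ± 0.10.

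ABCC9 encodes SUR2, the sulfonylurea receptor that forms ATP-sensitive potassium channels with pore subunits of the Kir6 type and is not itself known as an exporter. Its log2 expression was 8.50, 8.49, 8.93 and 8.69 with I3CA, against 8.87, 9.16, 9.06 and 8.84 with DMSO. I3CA replicate 3 lay inside the DMSO range and the other 3 I3CA arrays below all DMSO arrays. The means were 8.65 ± 0.21 with I3CA and 8.98 ± 0.15 with DMSO (SD, n = 4 each), a difference of -0.33 ± 0.12 (SE; interval -0.59 to -0.07), which did not pass the threshold (limma adjusted p = 1.00). Lower with an unadjusted p under 0.05 was 1 of 31 members (3.23%), against 1.42% of all genes. The difference was -0.28 without I3CA replicate 1 or I3CA replicate 2 and -0.27 without DMSO replicate 2, where the unadjusted p was over 0.05. It was -0.42 without I3CA replicate 3, where the groups did not overlap, as was so in 4.72% of all genes. The 2 listed pore genes, KCNJ8 and KCNJ11, had no row of their own.

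ABCC11, whose variant sets earwax type, and ABCC12, a less studied relative, are neighbours on chromosome 16. Both had higher means with I3CA, and neither passed the threshold. ABCC11 averaged 7.82 ± 0.19 with I3CA and 7.62 ± 0.08 with DMSO, and ABCC12 averaged 9.17 ± 0.18 with I3CA and 8.84 ± 0.34 with DMSO (SD, n = 4 each). The differences were 0.20 ± 0.10 (interval -0.03 to 0.42) and 0.33 ± 0.16 (interval -0.02 to 0.69). In both genes 1 array decided the overlap of the groups, so leaving it out removed the overlap by construction. Without I3CA replicate 3 the groups of ABCC11 did not overlap (difference 0.29), beside 4.72% of all genes in that setting. Without I3CA replicate 4 those of ABCC12 did not (difference 0.41), beside 4.23% of all genes.

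**Figure D4:**
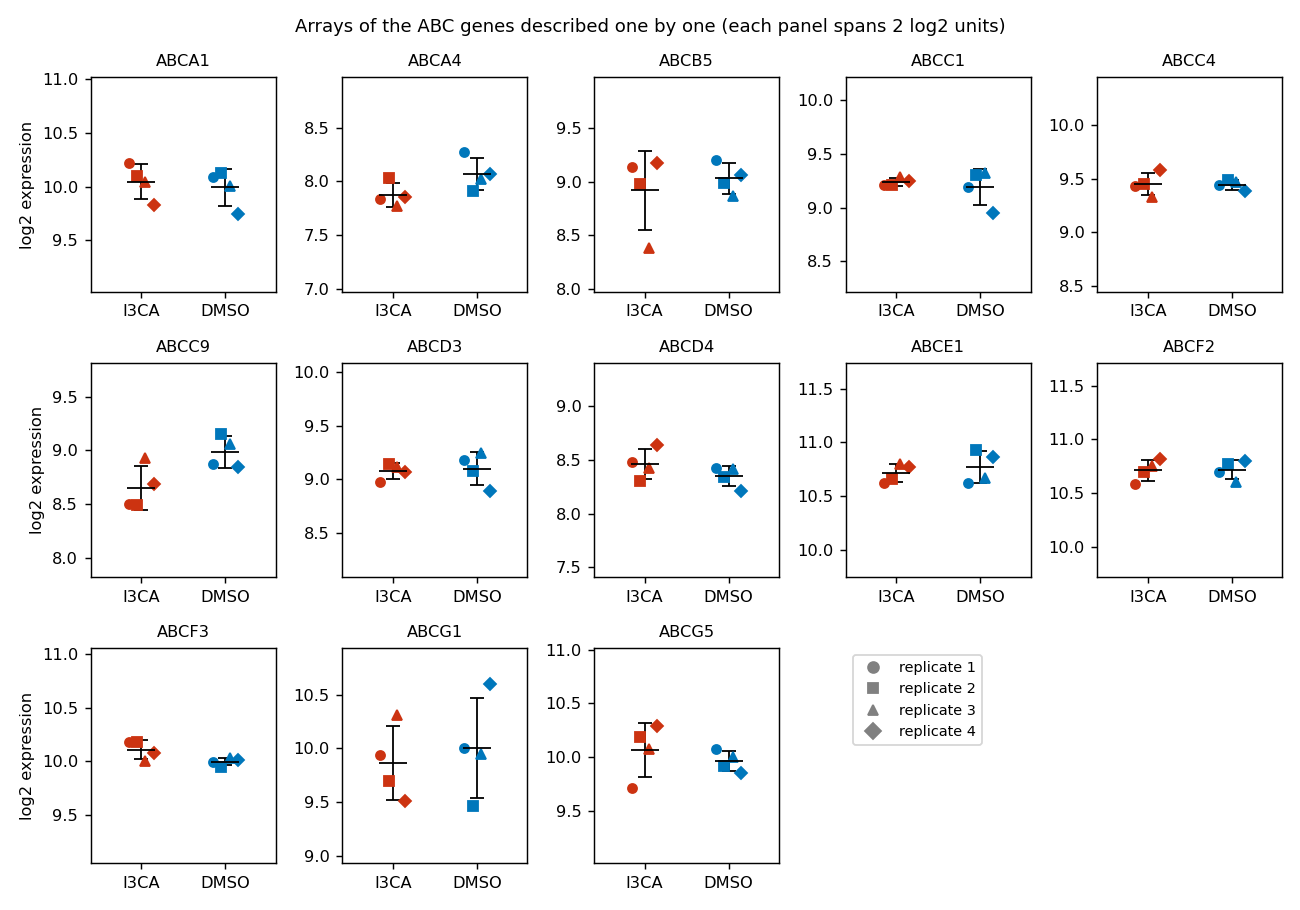
Log2 expression of 13 ABC genes on each array, I3CA left and DMSO right, with symbols for the replicate number, black lines for the group mean and bars for the SD (n = 4). In each panel the arrays of the groups overlap, with ABCC9 showing 3 I3CA arrays below all 4 DMSO arrays.

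The organelle transporters of subfamily D and the ribosome-acting members of E and F had replicate SDs from 0.07 to 0.12, apart from ABCF1 at 0.22. ABCD3, which carries branched-chain and bile acid precursors into peroxisomes, read 8.98, 9.14, 9.12 and 9.06 with I3CA, against 9.18, 9.08, 9.24 and 8.89 with DMSO (difference -0.02 ± 0.09). ABCD4, needed for the release of cobalamin from lysosomes, read 8.48, 8.31, 8.43 and 8.64 with I3CA, against 8.42, 8.35, 8.41 and 8.22 with DMSO (difference 0.12 ± 0.09). The groups overlapped in both genes. ABCE1, which splits ribosomes after termination, read 10.62, 10.66, 10.80 and 10.77 with I3CA, against 10.62, 10.93, 10.67 and 10.87 with DMSO (difference -0.06 ± 0.09, interval -0.26 to 0.15). All I3CA arrays lay within the DMSO range. ABCF2 read 10.58, 10.70, 10.76 and 10.81 with I3CA, against 10.70, 10.77, 10.60 and 10.80 with DMSO (difference -0.01 ± 0.08). ABCF3 read 10.18, 10.18, 10.00 and 10.07 with I3CA, against 10.00, 9.95, 10.03 and 10.02 with DMSO (difference 0.11 ± 0.08, interval -0.06 to 0.28). Its I3CA replicate 3 lay among the DMSO arrays and the other 3 above them. ABCF1, which takes part in translation initiation with eIF2, differed by -0.06 ± 0.14.

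The sterol transporters of subfamily G had the highest median replicate SD of the subfamilies, 0.30, with 0.22 for B and 0.20 for A. The median was 0.17 over the family and 0.15 over all genes. Within subfamily G the SD was 0.55 for ABCG8 and 0.41 for ABCG1, but 0.19 for ABCG5 and 0.16 for ABCG4. ABCG1, which passes cholesterol to high-density lipoprotein, read 9.94, 9.70, 10.31 and 9.51 with I3CA, against 10.00, 9.46, 9.95 and 10.60 with DMSO. The lowest and the highest array were both in the DMSO group, and the difference of -0.14 ± 0.23 was 0.06 without DMSO replicate 4 and 0.18 without both arrays numbered 4. ABCG5 and ABCG8 encode the partners of the intestinal and hepatic sterol exporter. ABCG5 read 9.71, 10.18, 10.07 and 10.29 with I3CA, against 10.08, 9.92, 10.00 and 9.86 with DMSO (difference 0.10 ± 0.12). I3CA replicate 1 was the lowest of the 8 arrays and the other 3 I3CA arrays lay above 3 of the 4 DMSO arrays. Without I3CA replicate 1 the difference was 0.22 (limma unadjusted p = 0.047, not passing the adjusted threshold), and without both arrays numbered 4 it was -0.01. ABCG8 ran from 6.89 to 8.38 under I3CA and from 7.11 to 8.10 under DMSO, with the largest SE of the family (difference 0.03 ± 0.30). ABCG4, a sterol transporter of brain, differed by 0.07 ± 0.11.

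Because I3CA was applied as an AHR ligand, the promoters of the members were searched for the core of the AHR response element, GCGTG, on both strands (its reverse complement is CACGC). The window was the 250 bases before each RefSeq transcript start (GRCh38.p14). Of the 31 members 25 had a promoter entry, and 13 of these 25 held at least 1 match before any of their starts (52%), against 52.9% of the 8903 genes tested that had an entry. The median difference was -0.01 over the 13 members with a match (range -0.09 to 0.16) and 0.05 over the 12 without one (range -0.33 to 0.33). Over all genes the medians were -0.01 with a match and -0.01 without. ABCC9, ABCC11, ABCC12 and ABCA9, which had the 4 differences of largest size, were all among the members without a match. None of these 4 passed the adjusted threshold, and the cut at 4 was not planned. ABCA4, next in size at -0.19 beside 0.20 for ABCC11, had no promoter entry. A relation between match and difference was not tested. A match is a description of letters, and its absence says nothing of sites farther away.

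**Figure D5:**
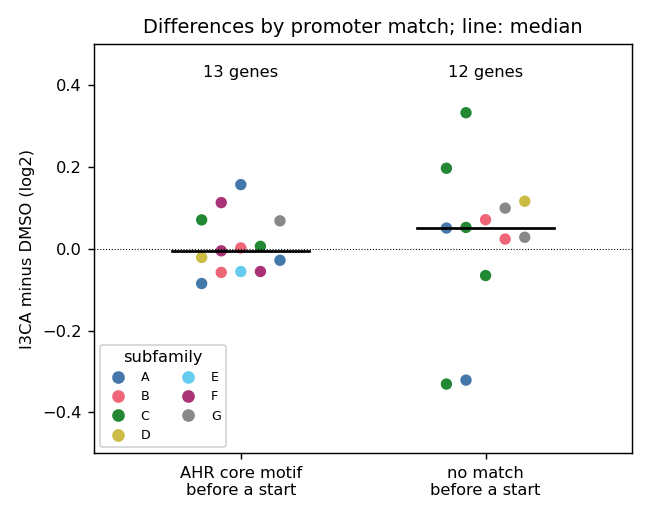
Difference between I3CA and DMSO on the log2 scale for the 25 ABC genes with a promoter entry, split by whether the AHR core motif occurs within 250 bases before a transcript start; points are genes coloured by subfamily and lines are medians (-0.01 for 13 genes with a match, 0.05 for 12 without). The 13 genes with a match span -0.09 to 0.16.

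The sequences below are from RefSeq, written 5′ to 3′, with matches to the motif or its reverse complement in capitals. ABCE1 is shown because its window held the most matches of any member, 3, and lies on the plus strand at chr4:145098061-145098310. ABCC9 is shown because it had the smallest p of the family, and its window on the minus strand at chr12:21941427-21941676 held 0 matches. ABCG5 and ABCG8 run away from each other, and the third sequence is the whole stretch of 131 bases between their starts, chr2:43838840-43838970 on the plus strand, with 0 matches. These 2 genes thus share 1 upstream region, and their differences were 0.10 and 0.03.
ABCE1: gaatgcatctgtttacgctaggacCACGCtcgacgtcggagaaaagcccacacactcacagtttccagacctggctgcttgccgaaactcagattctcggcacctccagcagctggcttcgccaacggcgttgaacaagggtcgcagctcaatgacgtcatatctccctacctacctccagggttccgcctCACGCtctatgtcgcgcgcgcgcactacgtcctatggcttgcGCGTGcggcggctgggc
ABCC9: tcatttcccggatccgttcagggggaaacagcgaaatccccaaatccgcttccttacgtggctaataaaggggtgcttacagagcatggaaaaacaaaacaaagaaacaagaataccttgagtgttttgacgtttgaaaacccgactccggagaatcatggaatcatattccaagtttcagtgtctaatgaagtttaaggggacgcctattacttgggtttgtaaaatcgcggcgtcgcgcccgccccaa
ABCG5-ABCG8: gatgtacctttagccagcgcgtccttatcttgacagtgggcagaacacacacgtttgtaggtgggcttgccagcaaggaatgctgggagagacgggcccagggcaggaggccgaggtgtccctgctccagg
ABCE1, with 3 matches, differed by -0.06 ± 0.09, and ABCC9, with 0, by -0.33 ± 0.12 (SE). As ABCC9 was picked by its p and ABCE1 by its matches, no conclusion on the motif can be drawn from this pair.

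The rows of the family also differed in how often their values recurred in the table. How many probes stand behind each row was not used here. In 15 of the 31 members the value of 5 or more of the 8 arrays was identical, to all deposited digits, to the value of another row on the same array, and in the other 16 members at most 1 array was. Over all genes 19% had 5 or more such arrays, 10.4% had 2 to 4 and 70.5% had at most 1. The median SD between replicates was 0.27 in those 15 members and 0.14 in the other 16, and over all genes it was 0.20 and 0.14 in the same classes. A difference over 0.2 in size was seen in 3 of 31 members, against 9.08% of all genes, and these 3 (ABCC9, ABCC12 and ABCA9) were all among the 15. So were the 3 members with the widest intervals, ABCG8, ABCG1 and ABCA7. Over all genes a difference over 0.2 in size was also more frequent in that class. It was seen in 414 of the 2252 genes with 5 or more such arrays and in 553 of the 8337 with at most 1. This split was made after the values were seen, and its part in the differences was not tested.

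Genes that work with ABC proteins were described from lists by role. Of 99 listed genes 69 were measured, 0 passed the adjusted threshold in either direction, and 1 (1.45%) had an unadjusted p under 0.05, against 3.16% of all genes. TAP1 and TAP2, the ABC subunits of the peptide transporter of antigen presentation, whose symbols do not start with ABC, differed by 0.02 ± 0.12 and -0.10 ± 0.10. Their 7 measured peptide-loading partners had a median of -0.01, led by TAPBP (tapasin, 0.09 ± 0.10). The 7 measured lipoprotein partners and sterol receptors had a median of -0.01, led by LCAT, the cholesterol acyltransferase of plasma (0.09 ± 0.08). Among 9 measured regulators of transporter genes the median was -0.02, with AHR at 0.08 ± 0.09, its partner ARNT at -0.02 ± 0.11 and NFE2L2, the gene of NRF2, at 0.18 ± 0.09. NFE2L2 ran from 10.00 to 10.28 under I3CA and from 9.83 to 9.99 under DMSO. It was the 1 measured gene of the 69 whose groups did not overlap (1.45%), against 1.92% of all genes.

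Glutathione and conjugation enzymes, which make substrates for subfamily C, had a median of -0.05 over 9 measured genes, 2 of them above 0, led by GSTK1 (-0.13 ± 0.08). The 13 measured mitochondrial iron-sulfur and heme genes had a median of 0.02, led by the iron importer SLC25A37 (0.14 ± 0.10). The 9 peroxisomal genes had a median of 0.00, led by the import receptor PEX5 (-0.16 ± 0.09), and the 4 cobalamin genes 0.00, led by MMACHC (0.08 ± 0.12). Among 9 measured ribosome recycling and translation genes the median was 0.02. The 1 gene with an unadjusted p under 0.05 was there: EIF3J, an initiation factor 3 subunit that also acts in ribosome recycling beside ABCE1. It read 9.71, 10.23, 10.13 and 9.98 with I3CA, against 9.58, 9.94, 9.59 and 9.55 with DMSO. I3CA replicate 1 lay below DMSO replicate 2, and the difference was 0.34 ± 0.13 (limma adjusted p = 1.00).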

How the data were processed

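Total RNA of U-87MG cells was labelled with biotin and hybridised to 8 whole-transcript arrays, 4 with I3CA and 4 with DMSO. The authors deposited log2 expression values, 1 per row and array, made with oligo and RMA per the submitters' processing notes (background correction, quantile normalization and probe summary). Versions, array dates and the genome build are not given in the sources used here. Of 13486 rows 11850 had 1 symbol in GEO's platform annotation (an older release), 657 several and 979 none. The brightest row per symbol left 11822 genes. I3CA was compared with DMSO in R 4.3.3 by limma 3.58.1 (two-sided lmFit and eBayes fit without covariates), with Benjamini-Hochberg adjustment over all of them and a threshold of 0.05. The scripts were tested on simulated data. The number of arrays limits the precision, and the brightness of different rows is not comparable as RNA abundance. Genes with full values were, per subfamily, the brightest row and the smallest p, any member with an unadjusted p under 0.05 or groups that do not overlap, and ABCA1, ABCC1 and ABCG1; each role list was represented by its member with the smallest p. The members and lists were chosen with earlier results of these data known. Promoter sequences came from RefSeq (GRCh38.p14). Alternatives covered the row per gene, the variance prior, array weights, 2 scalings, a brightness filter, the rows tested, a replicate block and arrays left out.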

Additional observations from a re-analysis of the deposited data

Results flagged for a closer look

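One end of a group of 4 arrays stood far from its 3 neighbours in 4 of 78 groups, where chance gives about 3.9. The groups examined were the 2 groups of each of the 31 ABC genes and of the means of the family and its subfamilies. These means are built from the same genes, and that of subfamily E is ABCE1 itself. The groups are thus not independent, and 3.9 is only a rough guide. ABCC11 was at 7.53 in I3CA replicate 3, with the other I3CA arrays at 7.90 to 7.92. ABCC5 was at 7.76 in I3CA replicate 2, with the others at 8.04 to 8.09. ABCF1 was at 9.97 in I3CA replicate 4, with the others at 9.46 to 9.50. ABCC3 was at 9.15 in DMSO replicate 3, with the others at 8.79 to 8.82.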

How the results depend on the processing

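The count of ABC genes past the adjusted threshold was 0 in the planned comparison and in all 17 alternatives, and so was that of the partner genes. The family median ranged from -0.04 to 0.03 and the subfamily medians moved by less than the spread between replicates. At an unadjusted p under 0.05 the count of 1 became 0 among the 15 members at or above the median brightness. ABCC9 was not retested there, as its mean of 8.82 lay just under the median of 8.83. The count was 3 with the replicate block (ABCC9, ABCC12 and ABCA9) and 1 to 3 with 1 array left out. The highest count came without I3CA replicate 3 (ABCC9, ABCC11 and ABCB11). Over all genes the share was 3.16% as planned, 2.91% at or above the median brightness, 4.71% with the block, 4% without I3CA replicate 3 and 2.77% to 4% with 1 array left out. Members whose groups did not overlap numbered 1 without both arrays numbered 4 and 0 to 3 with 1 array left out, beside 7.66% and 3.88% to 4.72% of all genes. Without I3CA replicate 3 they were ABCF3, ABCC9 and ABCC11, without I3CA replicate 2 they were ABCA4 and ABCD4, without I3CA replicate 4 the gene was ABCC12, and without DMSO replicate 2 it was ABCA9. Sign changes concerned uncalled differences. ABCC4 was at -0.0062 with array weights and ABCF2 at 0.0085 with repeated quantile normalization. Without both arrays numbered 4, ABCC1 was at -0.035, ABCC4 at -0.059, ABCG1 at 0.18 and ABCG5 at -0.012. With 1 array left out the ranges were -0.032 to 0.12 for ABCA1, -0.20 to 0.066 for ABCB5, -0.032 to 0.092 for ABCC1, -0.038 to 0.046 for ABCC4, -0.090 to 0.026 for ABCD3, -0.044 to 0.039 for ABCF2, 0.024 to 0.22 for ABCG5 and -0.32 to 0.059 for ABCG1. The cause was not tested. Same-numbered arrays correlated in their deviations from the group means at 0.04, 0.07, 0.05 and 0.32 for numbers 1 to 4. Only the arrays numbered 4 matched each other best, as I3CA replicate 4 correlated at most 0.09 with the other DMSO arrays. What these arrays share was not tested. The labels do not say what equal numbers mean, so the planned comparison did not model them. The replicate block gave 0 adjusted calls in the family.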

Other observations

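The 8 arrays were not extreme equally often. I3CA replicate 4 was the highest I3CA array in 14 of the 31 ABC genes and the lowest in 3, beside 28.2% and 26.7% of all genes. DMSO replicate 4 was the lowest DMSO array in 12 members and the highest in 4, beside 29.4% and 28.3% of all genes. DMSO replicate 1 was the highest DMSO array in 12 members, beside 23.3% of all genes, and I3CA replicate 2 the lowest I3CA array in 11, beside 28.6%. Both arrays numbered 4 were lowest of their groups in 1 member (ABCA1) and highest in 2 (ABCF2 and ABCG8), which is 3.23% and 6.45% of the family, beside 12.2% and 11.7% of all genes.

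Of the 248 array values of the family 112, or 45.2%, were identical to the value of another row on the same array, beside 21.9% of the values of all genes. The share was 43.8% in the 16 members below the median brightness and 46.7% in the 15 at or above it, beside 25.1% and 18.7% of the values of all genes. ABCC9, ABCC12, ABCB5 and ABCC4 shared their value on all 8 arrays, and ABCA1, ABCC1, ABCE1 and ABCF2 on 0.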
